A study of Mus musculus with 8 samples.

Results

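Mouse chromosome 13 carries the largest cluster of replication-dependent histone genes, and the peaks of histone H3 lysine 27 acetylation (H3K27ac) over and around these genes were mapped in embryonic stem cells with and without activation of a RAF kinase. The genes were chosen by name and position: every RefSeq protein-coding gene in a 2.2 Mb interval of chromosome 13 whose symbol starts with Hist1h, H1f, H2ac, H2bc, H3c, H4c or H4bc. The first and last of these start at base 21715711 (H2bc13) and end at base 23764412 (H1f1). This rule found 52 of the 21887 protein-coding genes in the table, namely 6 H1, 12 H2A, 14 H2B, 9 H3 and 11 H4 genes. One of the H2B genes carries the symbol H4bc24 and is listed with the older symbol Hist1h2br. Peaks of the 4 H3K27ac libraries were merged where they overlapped, and 93 of the 82792 merged regions lay within 20 kb of a cluster gene.

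The cells were of the E14tg2a line, mouse embryonic stem cells of 129SV background. Both groups stably expressed cRAF-ErT2, in which the kinase cRAF is fused to an oestrogen receptor domain, so that 4-hydroxytamoxifen (4OHT) switches the kinase on and with it the MAP kinase ERK. Serum, LIF and 2 uM of the GSK3 inhibitor Chir99021 were in the medium of both groups. For the last 24 h before treatment it held serum, LIF and 250 nM of the FGF receptor inhibitor PD173074, and Chir99021 is not named for it. The untreated group received no 4OHT and the treated group received 250 nM 4OHT for 2 h. Each group held clones a and b, 1 library each, and no vehicle control is named. All 8 marker genes of embryonic stem cells had a peak within 2 kb in all 4 libraries, as did 1 of 6 fibroblast, 0 of 6 primitive endoderm, 2 of 4 haematopoietic (Laptm5 and Spi1) and 1 of 4 testis germ cell markers (Sycp3). The deposited files list 61203 and 63276 peaks in the untreated libraries (clone a, then clone b, as in every pair of values below) and 59170 and 62764 in the treated ones. They hold no read counts: depth is unknown, and a missing peak does not show that the mark was absent.

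Replication-dependent histone genes supply the histones that package newly made DNA, and they are transcribed in S phase. They are short, mostly have no introns, and their mRNAs end in a stem-loop in place of a poly(A) tail. Their transcription depends on the coactivator NPAT, a target of cyclin E and CDK2, in nuclear structures called histone locus bodies. H2A, H2B, H3 and H4 form the nucleosome core, and H1 binds the linker DNA between nucleosomes. H3K27ac is laid down by the acetyltransferases CBP and p300 and marks active promoters and enhancers.

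The promoters of the cluster are shown first, since 43 of the 93 regions touch a histone gene. The RefSeq promoter table (assembly GRCm38.p6, the coordinates of mm10) matched 49 of the 52 genes, all but H2bc4, H3c7 and H3c1, and gave 50 windows from 250 bases before to 50 after a start, because H2bc6 has 2 starts. The printed stretches end before the start site and stop at a neighbouring gene. Capitals mark, on either strand, 5 motifs that histone promoters are known for. The TATA box was searched as TATAAA. The box bound by the factor NF-Y was searched as CCAAT. The octamer, bound by OCT1 and known above all from H2B promoters, was searched as ATTTGCAT. The H1 box, which belongs to promoters of linker histone genes, was searched as AAACACA. The cAMP response element, bound by CREB and ATF factors, was searched as TGACGTCA. H2A and H2B genes often face away from each other over a shared promoter, and the first 2 stretches are such promoters, read in the direction of the H2B gene: H2ac12 and H2bc12 at chr13:22035644-22035820 and H2ac8 and H2bc8 at chr13:23571221-23571399, both on the plus strand. H1f3 (chr13:23554782-23555031, plus strand) has the widest peak cover of the H1 genes, H3c3 (chr13:23745522-23745771, minus strand) that of the H3 genes, and H4c9 (chr13:22041363-22041612, minus strand) stands for the H4 genes. H2bc22 (chr13:21787249-21787487, plus strand, shared with H2ac22) is the gene whose cover was lower by the largest log2 difference after 4OHT. H4c17 (chr13:21811496-21811745, plus strand) and H4c18 (chr13:21832198-21832447, minus strand) are near-identical copies.
H2ac12 and H2bc12: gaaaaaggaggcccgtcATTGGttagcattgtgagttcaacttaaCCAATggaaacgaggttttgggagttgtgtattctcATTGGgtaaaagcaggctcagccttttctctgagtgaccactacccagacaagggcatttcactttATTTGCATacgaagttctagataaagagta
H2ac8 and H2bc8: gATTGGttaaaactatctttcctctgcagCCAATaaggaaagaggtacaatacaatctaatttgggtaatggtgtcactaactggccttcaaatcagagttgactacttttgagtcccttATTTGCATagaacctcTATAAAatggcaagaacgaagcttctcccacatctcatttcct
H1f3: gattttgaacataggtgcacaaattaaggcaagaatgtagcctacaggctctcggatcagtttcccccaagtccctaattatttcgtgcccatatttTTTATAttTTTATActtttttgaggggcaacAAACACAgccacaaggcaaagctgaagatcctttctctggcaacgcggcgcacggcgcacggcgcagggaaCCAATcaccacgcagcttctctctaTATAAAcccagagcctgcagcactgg
H3c3: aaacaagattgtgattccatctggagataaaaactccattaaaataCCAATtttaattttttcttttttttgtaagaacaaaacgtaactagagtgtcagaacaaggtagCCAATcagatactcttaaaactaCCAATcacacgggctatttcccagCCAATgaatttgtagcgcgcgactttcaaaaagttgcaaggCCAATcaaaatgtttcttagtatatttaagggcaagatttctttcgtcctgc
H4c9: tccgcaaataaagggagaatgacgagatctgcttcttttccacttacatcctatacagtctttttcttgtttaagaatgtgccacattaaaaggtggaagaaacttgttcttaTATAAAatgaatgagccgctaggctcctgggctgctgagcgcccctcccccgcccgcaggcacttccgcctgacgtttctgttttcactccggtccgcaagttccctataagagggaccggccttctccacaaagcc
H2ac22 and H2bc22: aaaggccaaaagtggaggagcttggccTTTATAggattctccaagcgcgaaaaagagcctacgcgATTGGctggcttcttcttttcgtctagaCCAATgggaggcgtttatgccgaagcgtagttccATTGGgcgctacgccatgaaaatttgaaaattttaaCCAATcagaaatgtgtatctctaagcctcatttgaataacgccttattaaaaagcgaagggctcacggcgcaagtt
H4c17: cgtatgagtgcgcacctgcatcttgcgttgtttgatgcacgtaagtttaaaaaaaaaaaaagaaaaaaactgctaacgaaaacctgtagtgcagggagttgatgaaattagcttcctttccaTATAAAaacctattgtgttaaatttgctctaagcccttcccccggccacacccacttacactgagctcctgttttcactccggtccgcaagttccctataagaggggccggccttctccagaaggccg
H4c18: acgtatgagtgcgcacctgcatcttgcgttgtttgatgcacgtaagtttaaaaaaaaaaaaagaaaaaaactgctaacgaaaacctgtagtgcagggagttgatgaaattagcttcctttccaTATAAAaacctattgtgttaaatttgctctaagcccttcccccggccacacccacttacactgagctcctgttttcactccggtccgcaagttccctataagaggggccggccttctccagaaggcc

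The classes differed in the motifs of these windows. The NF-Y box stood in 42 of the 50 windows (84.0%), against 37.4% of the 32851 windows of the table. It was in every H1, H2A, H2B and H3 window and in 3 of 11 H4 windows. The letters of the TATA box were in 29 windows (58.0%, against 13.6%), most often in H4 (8 of 11) and least often in H2B (6 of 14). They were counted at any distance from the start, so these counts do not rank the classes by TATA boxes in use. The octamer was in 4 of 12 H2A and 5 of 14 H2B windows and in 0 of the H1, H3 and H4 windows, against 1.74% of all windows. In the shared promoters of H2ac12 and H2bc12 and of H2ac8 and H2bc8 a single octamer counts for both genes. The H1 box was in 5 of 6 H1 windows, all but that of H1f1, and in 2 others, against 7.18% of all. The cAMP response element was in 4 of the 50 windows, against 1.79%, and 2 of those 4 were H4 windows. The rest were those of H2ac11 and H2bc11, which share a promoter and a single such element. Windows of promoter partners overlap, so for every motif 1 match can count for 2 genes. These are matches of letters in these windows and say nothing of what binds there. The search held both strands, and none of the motifs contains another.

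Of the 50 windows, 4 had an exact copy of most of their bases in another gene of the cluster and 4 a copy over 90% identical. H2bc23 and H4bc24 were 100% identical over the whole window, and H2ac23 and H2ac24 were 100% identical once shifted by 100 bases. H4c17 and H4c18 were 99.7% identical at a shift of 1 base, and H4c11 and H4c12 95.8% identical at a shift of 14 bases. How reads that match several copies were handled is not given in the sources used here, so peaks over these 8 genes are uncertain. Gene bodies were not compared, so whether peaks over the bodies of other genes share this limit is not known. The other 42 windows were under 60% identical to any other at the shifts tried, without gaps and each read in its own gene's direction. Partners that share a promoter hold the same bases on opposite strands, which this did not compare.

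H3K27ac peaks covered most of the cluster's short genes. For each gene, the length under peaks was summed over the gene and 2 kb on either side, and called the covered length. Of the 52 genes, 47 (90.4%) had a peak in this window in all 4 libraries, against 56.8% of all protein-coding genes. Among genes of at most 1 kb, 44 of the 47 histone genes did (93.6%), against 65 of 1530 others (4.25%). The median gene of the cluster had 3.46 kb covered, 71.7% of its window, whereas the median of all protein-coding genes was 0.786 kb and 1.96%. The genes were chosen with these peaks known, so these differences are descriptions. Neighbours a few kb apart share parts of their windows, and the 52 genes had 50 distinct sets of covered lengths. Just outside the chosen interval, the testis histone genes H2bc1 and H2ac1, the latter ending at chr13:23934913, had 0 bp in all 4 libraries.

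The genes lie in 3 blocks separated by more than 100 kb. Block 1 holds 18 genes over 122 kb (chr13:21715711-21837530), block 2 holds 5 genes over 8.54 kb (chr13:22035122-22043658) and block 3 holds 29 genes over 233 kb (chr13:23531044-23764412). Peak cover was densest in the small block 2, where 71.0 and 71.2% of the bases within 2 kb of a gene were under peaks untreated and 78.6 and 71.1% treated. In block 3 it was 55.2 and 52.6% untreated and 51.3 and 49.6% treated, and in block 1 38.7 and 41.6% untreated and 34.7 and 38.0% treated. Blocks 1 and 3 had lower values in both treated libraries, and in block 2 the groups overlapped.

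**Figure D1:**
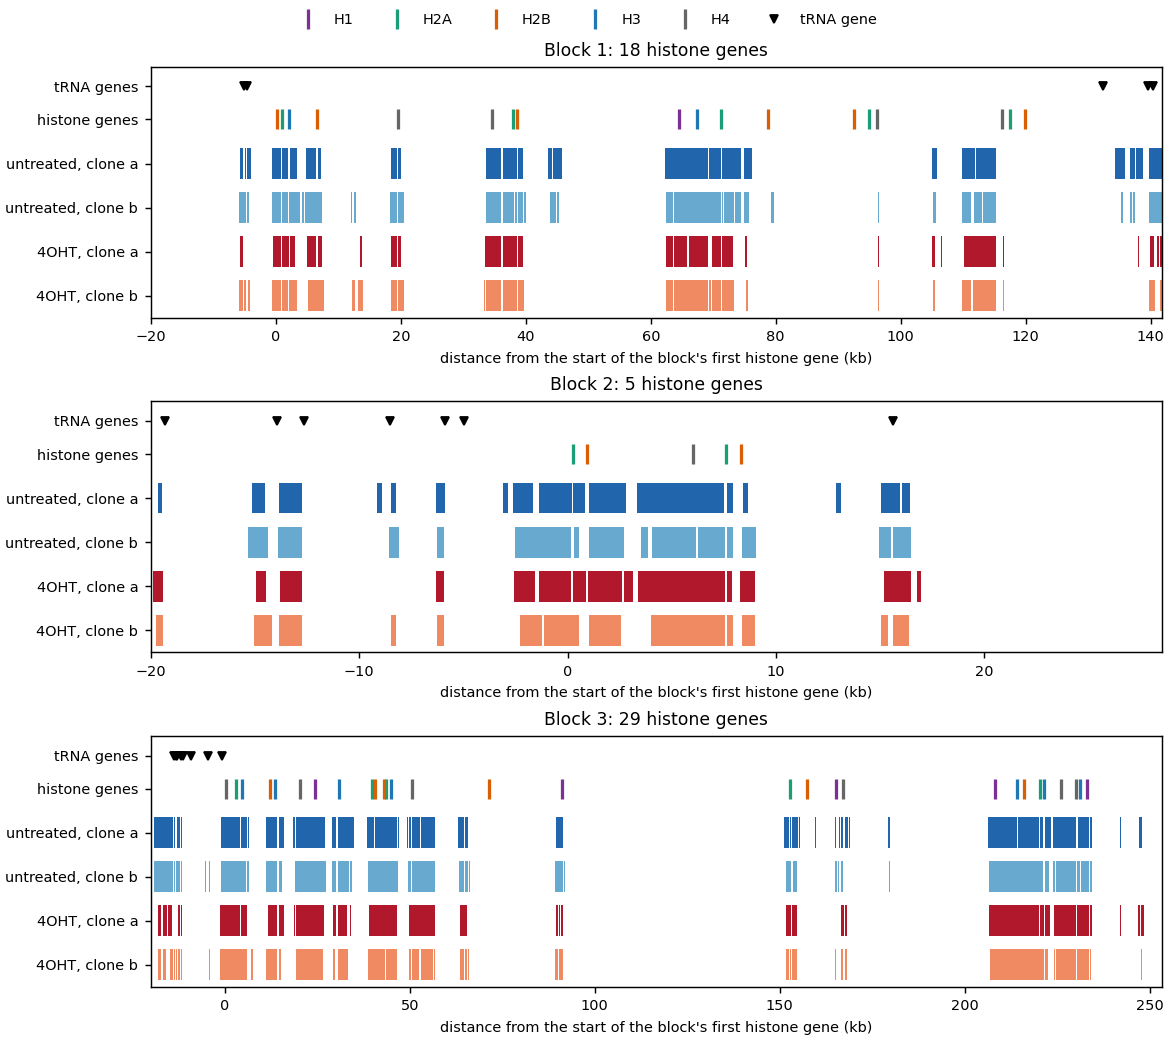
H3K27ac peaks (bars) of the 4 libraries along the 3 blocks of histone genes, in kb from the start of the first gene of each block; ticks mark histone genes by class and triangles tRNA genes. Peaks sit over nearly all histone genes in every library except a stretch of block 1 between about H2bc23 and H4c17 and around H2ac24 and H4bc24, and the tRNA side of block 1, at its right edge, has less cover after 4OHT.

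Among linker histone genes, the 5 somatic ones were covered in every library and the testis gene H1f6 only in part. H1f3 had 4776 and 4590 bp under peaks untreated and 4634 and 4509 bp treated. H1f5 had 4605 and 4351 bp untreated and 3993 and 4271 bp treated, so its treated values lay below both untreated ones. H1f2 had 4243 and 3800 bp untreated and 3932 and 3707 bp treated, and these overlapped. The next gene down, H1f1, is at the far end of block 3, with 3488 and 3183 bp untreated and 3475 and 3074 bp treated. H1f4 lies beside the far end of the H2bc6 interval and had 1730 and 2301 bp untreated and 1535 and 1896 bp treated. H1f6 (chr13:23695811-23696545, plus strand), which encodes the testis linker histone H1t, was lowest, with 1281 and 1405 bp untreated and 717 and 881 bp treated. The peak over its own body was 247 and 597 bp untreated, absent in treated clone a and 204 bp in treated clone b; its other cover lay where its window overlaps that of H4c3. The median H1 body, with H1f6 counted, had 98.8% of its bases under peaks over the 4 libraries.

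H2A genes ranged from nearly full windows to almost no cover. H2ac10 had 4342 and 4504 bp untreated and 4314 and 4504 bp treated, which is 98.0% of its window. H2ac7 had 4128 and 4257 bp untreated and 4308 and 4050 bp treated. These values overlapped between the groups. At the other end, H2ac24 (chr13:21833024-21833475, minus strand) had 0 bp in both untreated libraries and 211 and 200 bp in the treated ones, all from a single small peak over the start of its neighbour H4c18. H2ac23 (chr13:21810367-21810918, plus strand) had 0 and 210 bp untreated and 224 and 220 bp treated, from a small peak at H4c17. These 2 are the copies named above, and no base of either gene lay under a peak in any library.

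H2B genes had the longest gene intervals of the cluster. H2bc6 (chr13:23583670-23621124, minus strand) had 9888 and 10573 bp untreated and 9260 and 9169 bp treated, with the 2 kb on either side counted. Its gene interval of 37455 bp was the longest of all 52, and of that interval 17.7 and 19.1% was covered untreated and 16.5 and 16.1% treated. H2bc22 (chr13:21787483-21801561, plus strand) came next, with 5680 and 5259 bp untreated and 3588 and 3554 bp treated. The treated values of both genes lay below the untreated ones. H4bc24 (chr13:21833743-21837530, plus strand) shared the 0 and 0, 211 and 200 bp of H2ac24, and H2bc23 (chr13:21806412-21810199, minus strand) had 0 and 122 bp untreated and 123 and 122 bp treated. H2bc15 had 3036 and 3182 bp untreated and 3048 and 3203 bp treated.

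H3 genes were the most even class, with means over the 4 libraries between 3.18 and 4.40 kb. H3c3 had 4289 and 4480 bp untreated and 4345 and 4480 bp treated, and H3c11 had 4383 and 4378 bp untreated and 3599 and 4330 bp treated. The shortest were H3c10, with 3002 and 3937 bp untreated and 2871 and 3203 bp treated, and H3c2, with 3318 and 3037 bp untreated and 3336 and 3018 bp treated. The groups overlapped at H3c3, H3c10 and H3c2, whereas both treated values of H3c11 lay below the untreated ones.

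H4 genes split into a covered majority and a few with little cover. H4c2 had 4361 and 3959 bp untreated and 4042 and 4009 bp treated, and H4c1 had 3867 and 3976 bp untreated and 4235 and 4093 bp treated, above both untreated values. H4c11 had 1428 and 1886 bp untreated and 1480 and 1899 bp treated, whereas its near copy H4c12 had 2847 and 3024 bp untreated and 3010 and 3182 bp treated. H4c18 (chr13:21831792-21832197, minus strand) had 1161 and 1079 bp untreated and 1371 and 1356 bp treated. Its untreated cover came from a region that starts 0.833 kb away, chr13:21825443-21830959, and no untreated peak touched the gene. H4c17 (chr13:21811746-21812150, plus strand), whose promoter letters are nearly the same, had 0 and 210 bp untreated and 224 and 220 bp treated.

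**Figure D2:**
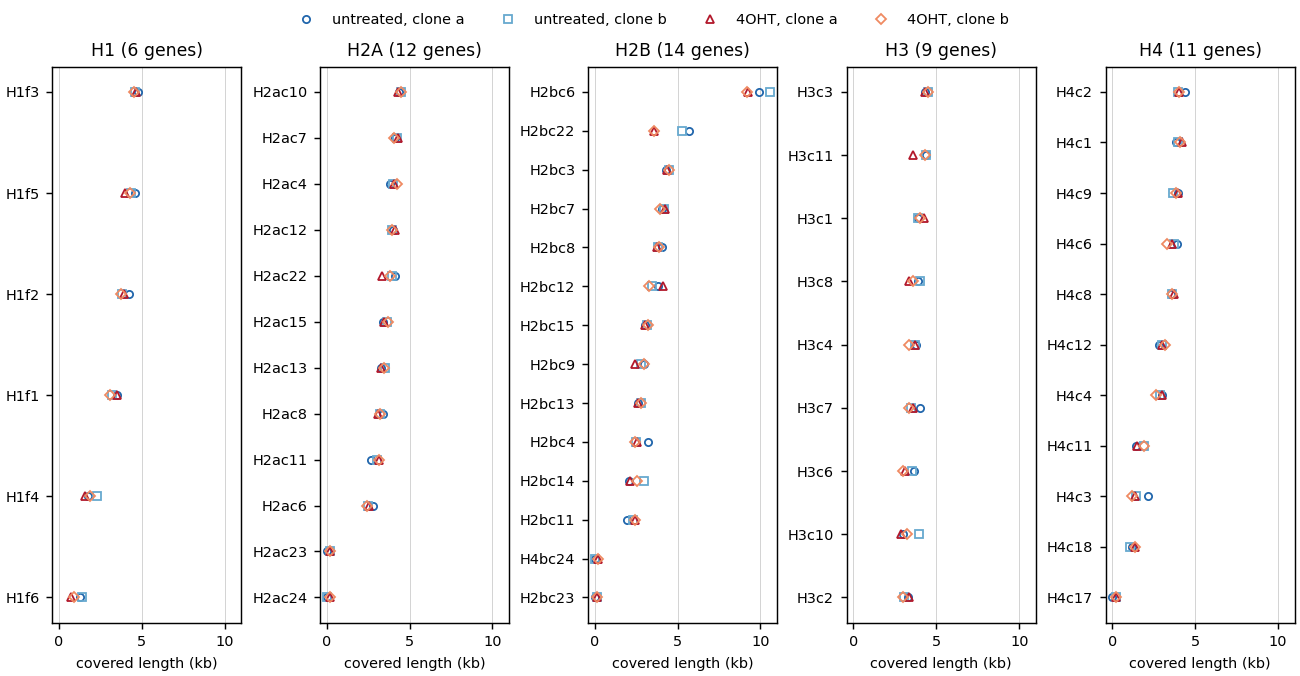
Length under H3K27ac peaks (kb) in each histone gene and 2 kb on either side, 1 point per library, by class and ordered by mean. Most genes lie between 2 and 5 kb with the 4 libraries close together; H2bc6 exceeds 9 kb, H2bc22 has both treated points left of both untreated ones, and 5 genes lie near 0.

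Several genes often lay under 1 merged region. The widest, chr13:23737289-23751305, ran 14017 bp from H1f2 over H3c3 and H2bc3 to the start of H2ac4, and peaks covered 13798 and 13574 bp of it in untreated and 13545 and 13470 bp in treated clones. In clone a the peaks left a gap within H3c3, of which 60.2% was covered untreated and 71.9% treated. In clone b 100% of H3c3 was covered in both groups. Of the 93 regions, 10 were wider than 5 kb (10.8%), against 1.48% of all regions. The median region with a peak in all 4 libraries was 1495 bp wide, against 1263 bp for all such regions. Within its own list, the median peak touching a cluster gene stood at the 84.5th to 87.2nd percentile of the authors' peak score, depending on the library.

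Cover along the genes was not even, and it differed between classes. At 250 bp downstream of the start, inside the gene body, 35.4% of the 12 H2A starts were under a peak on average over the libraries (25 to 41.7%), compared with 81.2% at 50 bp and 81.2% at 400 bp. H3 genes dipped at 150 and 200 bp, to 57.1% of 7 starts, and H2B genes at 250 bp, also to 57.1%, of 14 starts. H1 genes had no such gap, with 95.8% of the 6 starts under a peak from 150 to 300 bp. H4 genes dipped before the start, to 56.8% of 11 starts at 100 bp upstream. The 10263 start sites of other genes with a peak in all 4 libraries dipped at 100 bp upstream (47.6%) and were highest at 200 bp downstream (88.2%). The histone starts were not limited to genes with a peak, and the H2A starts include H2ac23 and H2ac24, whose bodies no peak touched. H2A and H2B starts each had a second dip, 400 to 450 bp upstream. For the 9 pairs of H2A and H2B genes that face away from each other, that distance lies in the body of the partner. Paired and unpaired starts were not separated, so whether the pairs make this dip was not tested. Gene bodies were not compared for shared sequence. Whether reads that match several genes bear on any of these dips was not tested.

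**Figure D3:**
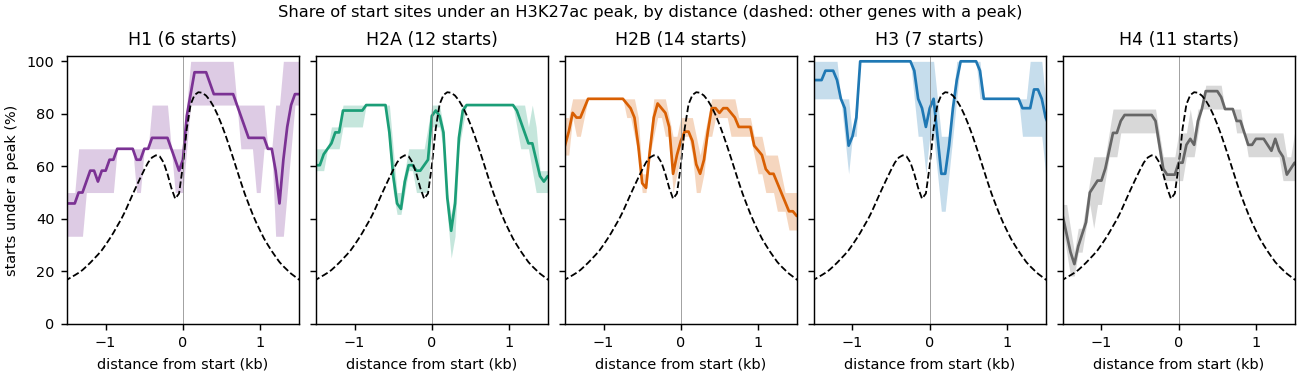
Share of start sites under an H3K27ac peak (%) by distance from the start (kb, downstream to the right), for each class; the line is the mean of the 4 libraries, the shading their range, and the dashed line other genes with a peak in all 4 libraries. H2A starts fall to 35.4% at 250 bp downstream, where H1 starts and other genes are at 95.8 and 88.0%. The histone starts, unlike the others, are not limited to genes with a peak.

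The same gaps show in single genes. Of the 47 histone genes of at most 1 kb, 14 lay wholly under peaks in all 4 libraries, among them H1f2, H1f3 and H1f5, and 18 had bases that no library's peaks covered. Of the 12 H2A genes, 7 had such bases and only H2ac10 was whole. There were 9 pairs of H2A and H2B genes facing away from each other, with 163 to 267 bp between their starts. At 6 pairs a single merged region with a peak in all 4 libraries ran over both starts. Only at 1 of the 9 pairs was the whole stretch between the starts covered in every library. Between H2bc13 and H2ac13, all of the 228 bp were under a peak in all 4 libraries. In the H2ac12 and H2bc12 promoter printed above, 100 and 19.2% was covered untreated and 100 and 24.3% treated, so clones differed more than treatments there. For H2ac8 and H2bc8 these values were 28.5 and 100% untreated and 100 and 35.8% treated. The 2 copied pairs, H2bc23 with H2ac23 and H2ac24 with H4bc24, had 0% in every library.

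The comparison of 4OHT with untreated cells asks whether peaks at these genes changed within 2 h of 4OHT, given to activate ERK, whose activity these data do not measure. At none of the histone genes did covered length pass the test. Limma compared the genes whose mean was 250 bp or more, on log2(covered bp + 500), which understates changes of short lengths, with Benjamini-Hochberg adjustment over all 13531 genes. Of the 47 histone genes fitted, 0 rose and 0 fell, while 2.77% of all genes fitted were called (227 rose, 1.68%, and 148 fell, 1.09%). At an unadjusted p under 0.05 there were 2 (H2bc22 and H1f6), against 21.1% of all genes. H2bc23, H2ac23, H4c17, H2ac24 and H4bc24 were under the filter. Without that filter 2 histone genes rose, H2ac24 and H4bc24, through the same small peak, where 0.521% of all genes rose and 0.717% rose or fell. With 2 clones in each group the p-values rest on the spread between these clones, together with a spread borrowed from all genes fitted. This fit did not pair the treatments by clone.

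The log2 changes of the 47 genes were small and mostly below that of the median gene. Their median was -0.031 (17 above 0 and 30 below), against 0.10 for all genes fitted, and the 2 clones gave medians of -0.0084 and -0.0078. The median lower and upper bounds of their 95% intervals were -0.35 and 0.29, so for a typical gene changes of that size are not excluded. The treated values lay above both untreated ones at 7 of the 47 genes and below both at 11, where 36.7 and 15.9% of all genes did so. By class, the median was -0.084 for H1, -0.0044 for H2A, -0.023 for H2B, -0.077 for H3 and 0.024 for H4. All 6 H1 genes and 7 of 9 H3 genes had estimates below 0, compared with 6 of 10 fitted H2A, 7 of 12 H2B and 4 of 10 H4 genes.

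The 3 largest decreases were at H2bc22, H1f6 and H4c3, and none passed the test. At H2bc22 the covered length was 5.47 ± 0.298 kb untreated and 3.57 ± 0.0240 kb treated (SD, n = 2 clones), a log2 change of -0.55 ± 0.11 (SE; limma adjusted p = 0.0884). With clone as a replicate block it passed (limma adjusted p = 0.0317; 13.7% of all genes were called there) and was the only 1 of the 47 that did; in that fit 5.59% of all genes fell and 8.15% rose. Most of the difference lay in 2 regions. The one over its start, chr13:21787085-21790219, had 3071 and 2758 bp covered untreated and 1785 and 1890 bp treated, and the next one, chr13:21790696-21791878, 1183 and 675 bp untreated and 367 and 252 bp treated. A further region within H2bc22, chr13:21795033-21795426, had 394 bp in untreated clone b only. The promoter partner of H2bc22, H2ac22, whose body lies on the other side, had 4135 and 3918 bp untreated and 3329 and 3799 bp treated (log2 change -0.16 ± 0.12 SE, limma adjusted p = 0.545).

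H1f6 had 1.34 ± 0.0877 kb untreated and 0.799 ± 0.116 kb treated (SD, n = 2 clones). The log2 change was -0.51 ± 0.14 (SE, limma adjusted p = 0.156). Among the upper 50% of peaks by score its difference turned to 0.10. H4c3, next to it, had 2171 and 1462 bp untreated and 1354 and 1204 bp treated (log2 change -0.37 ± 0.19 SE, limma adjusted p = 0.373). Their windows overlap, so they are not separate observations. The region that touches H4c3 itself was longer in the treated libraries, with 633 and 600 bp untreated and 717 and 677 bp treated.

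The 3 largest increases were smaller. H4c18 had a log2 change of 0.20 ± 0.12 (SE; limma adjusted p = 0.431), which comes from the small peak in the gene that was called in the treated libraries only. H2bc11 had 1977 and 2307 bp untreated and 2463 and 2424 bp treated, and H2ac11, its promoter partner, 2697 and 3027 bp untreated and 3183 and 3144 bp treated. Their log2 changes were 0.16 ± 0.12 and 0.13 ± 0.12 (SE, limma adjusted p = 0.547 and 0.617). The windows of this pair share the same difference in peaks.

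**Figure D4:**
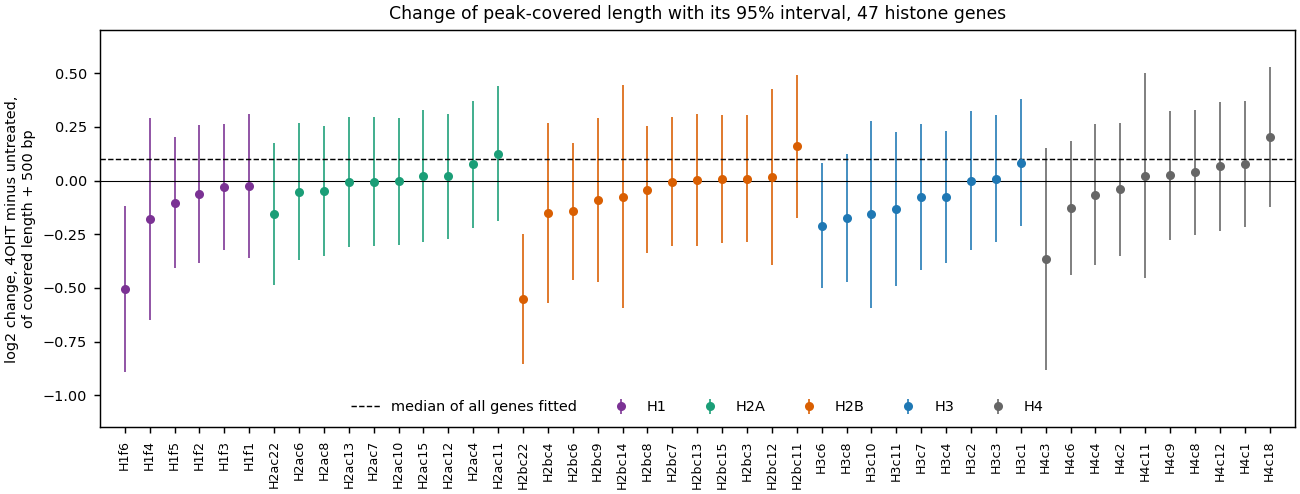
Log2 change of covered length (4OHT minus untreated, after adding 500 bp) with its 95% interval for the 47 histone genes fitted, by class; the dashed line is the median of all genes fitted. Intervals of 45 genes include 0; those of H2bc22 and H1f6, before adjustment, lie below it.

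Regions that appeared or disappeared in both clones were few. Of the 93 regions, 51 had a peak in all 4 libraries (54.8%, against 36.4% of all regions) and 22 in a single library. Regions with a peak in both treated and neither untreated library are called gained, and the reverse lost. There were 2 gained regions (2.15%, against 6.2% of all regions) and 5 lost ones (5.38%, against 6.26%). With 1 library left out, and so with 1 library deciding for its group, the lost count was 17 without untreated clone a, 16 without untreated clone b, 5 without treated clone a and 10 without treated clone b, and the gained count was 3 without untreated clone b and 4 without each of the others. Merging peaks within 1000 bp gave 1 gained and 2 lost regions of 37. Regions within 50 kb of a gene numbered 125, of which 3 were gained and 12 lost.

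A gained region of 217 bp, chr13:21831999-21832215, lay over the start of H4c18, with 211 and 200 bp covered in the treated clones, at the 62.1st and 51.2nd score percentile of their lists. At its near-identical copy H4c17 a small peak was also called in untreated clone b (210 bp) and in both treated clones (224 and 220 bp). How reads of such copies were placed is unknown, so the gain at H4c18 is uncertain. The other gained region, chr13:21728929-21729638, lay 5.396 kb from H4c11 and held 288 and 710 bp, at the 16.7th and 28.6th percentile. None of the lost regions touched a histone gene. The nearest, chr13:23537127-23537697, lay 1.22 kb from H3c8 and held 503 and 515 bp in the untreated clones, at the 9.06th and 1.96th percentile, so these were among the weakest peaks of their lists. H3c8 itself had 3913 and 3999 bp untreated and 3332 and 3574 bp treated (log2 change -0.17 ± 0.11 SE, limma adjusted p = 0.460). The longest lost region, chr13:21759335-21761468, lay 4.78 kb from H2bc15 and held 1914 and 1373 bp untreated. Another, chr13:23710447-23710885, lay 12.0 kb from H4c3, within Hfe, a gene of iron balance, with 439 and 200 bp. The remaining pair, chr13:21849956-21851613 and chr13:21852340-21853212, lay 12.4 and 14.8 kb from H4bc24, on the side of block 1 where tRNA genes begin.

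Summed over the cluster, peak cover was lower after 4OHT in both clones, and more so within 20 and 50 kb of the genes than within 2 kb. Within 20 kb of the 52 genes peaks covered 137.6 and 131.5 kb untreated and 118.9 and 117.7 kb treated, so the groups did not overlap. The mean was 12.1% lower (log2 ratio -0.19; -0.21 in clone a and -0.16 in clone b), whereas the log2 ratio of all peaks of the lists together was -0.018. An exact permutation test of 2 against 2 libraries (two-sided) gave p = 0.333, the smallest that this design allows. In the gene bodies alone the sums were 30.4 and 31.2 kb untreated and 28.8 and 28.9 kb treated, and within 2 kb of them 106.7 and 105.4 kb untreated and 99.92 and 99.04 kb treated. The log2 ratio was -0.093 within 2 kb, -0.11 within 5 kb and -0.26 within 50 kb.

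Lower cover was also seen beside tRNA genes, which RNA polymerase III transcribes and which are numerous here: 79 of the 408 tRNA genes in the table lie in the interval. The 93 regions were sorted by place after their values were seen, and each was summed whole, so these sums run past the 20 kb limit and do not divide the difference given for it. The 43 regions that touch a histone gene had 104.5 and 104.1 kb covered untreated and 98.6 and 98.1 kb treated. The 24 regions nearer to a tRNA gene than to a histone gene had 29.1 and 26.7 kb untreated and 17.7 and 17.7 kb treated. The remaining 26 had 15.03 and 11.5 kb untreated and 10.6 and 9.07 kb treated. Over whole regions the means differed by 19.6 kb in all, of which 10.2 kb was beside tRNA genes, 5.96 kb at histone genes and 3.41 kb elsewhere. In all 3 places both treated values lay below both untreated ones.

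The largest single difference was in chr13:21855387-21868614, a 13.2 kb region over tRNA genes that starts 17.9 kb from H4bc24 and lies mostly past the 20 kb limit, with 13228 and 12898 bp covered untreated and 9300 and 8339 bp treated. Without it, the regions beside tRNA genes had 15.9 and 13.8 kb untreated and 8.35 and 9.40 kb treated. A second, chr13:23511937-23517080, 13.96 kb from H4c8, had 5126 and 5039 bp untreated and 3070 and 2240 bp treated. Among regions with a peak in all 4 libraries, the treated values lay below the untreated ones at 5 of 9 beside tRNA genes, 8 of 36 at histone genes and 3 of 6 elsewhere, 16 of 51 in all, where 21.5% of all such regions did so. They lay above at 0, 7 and 0 of these, against 27.3%. Of 160 such regions within 1 kb of a tRNA gene and more than 20 kb from these histone genes, 11.9% lay below and 21.2% above. Their sum was 196.0 and 182.8 kb untreated and 196.4 and 186.4 kb treated. Any in the same interval of chromosome 13 were counted with the rest of the genome. The difference between places was not tested. The 20 kb limit takes in regions at 15.8, 17.9 and 19.4 kb from a histone gene and leaves out the next ones, at 20.1, 22.1 and 24.0 kb.

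**Figure D5:**
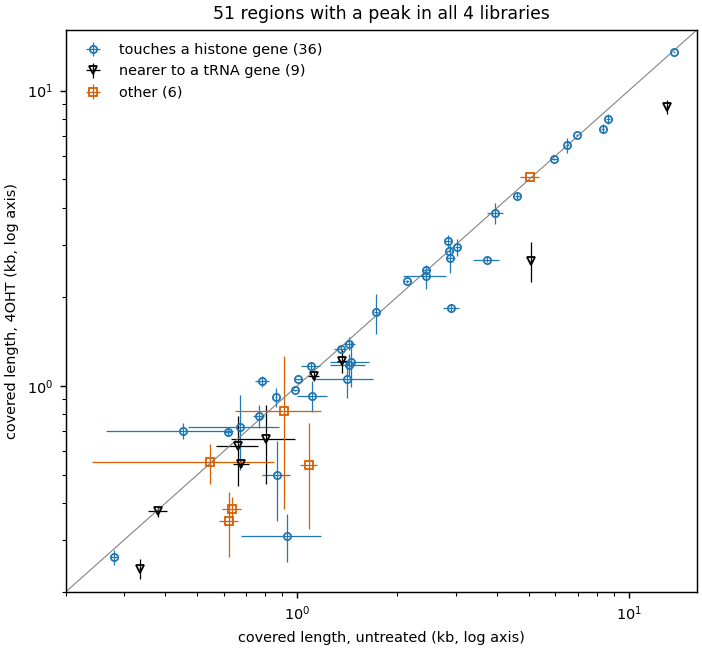
Covered length (kb, log axes) of the 51 regions with a peak in all 4 libraries, untreated against 4OHT; points are means and bars join the 2 clones, and the line marks equality. Most of the 36 regions that touch a histone gene lie near the line, whereas the longest pair beside tRNA genes lies below it.

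Other histone genes and their regulators give the frame for these values. The 13 replication-dependent histone genes outside the cluster, most of them on chromosome 3, all had a peak in all 4 libraries. Their summed covered length was 29.6 and 32.4 kb untreated and 31.5 and 31.5 kb treated, their median log2 change was 0.01, and 0 passed the test. The pair with the largest changes was H3c15 (2017 and 2055 bp untreated, 2273 and 2250 bp treated) and H2ac19 (1982 and 2186 bp untreated, 2243 and 2314 bp treated). Of 12 replication-independent variant genes, 11 were fitted and 1 fell (1.09% of all genes did), with a median log2 change of 0.00099. This was Macroh2a1, which encodes the histone macroH2A1, with 8189 and 7234 bp untreated and 1388 and 1766 bp treated (log2 change -1.99 ± 0.15 SE, limma adjusted p = 0.0317). Macroh2a2, its paralogue, had 3116 and 1881 bp untreated and 1337 and 1437 bp treated (log2 change -0.64 ± 0.23 SE, limma adjusted p = 0.229).

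Of 25 genes for factors of histone gene transcription and of histone mRNA 3′ end processing, 1 rose and 0 fell, where 1.68% of all genes rose and 1.09% fell. Their median log2 change was 0.10, the same as that of all genes. Sympk, which encodes symplekin, a scaffold of the 3′ end cleavage complex, had 893 and 966 bp untreated and 2163 and 2242 bp treated (log2 change 0.92 ± 0.12 SE, limma adjusted p = 0.0439). Lsm10, a subunit of the U7 snRNP that cleaves histone pre-mRNA, had 602 and 569 bp untreated and 1269 and 1592 bp treated (log2 change 0.83 ± 0.16 SE, limma adjusted p = 0.0777). With clone as a replicate block its limma adjusted p was 0.0371, where 13.7% of all genes were called. Npat, the coactivator of the cluster, had 2.78 kb untreated and 3.01 kb treated (limma adjusted p = 0.710). Nfyc, a subunit of the CCAAT-binding factor NF-Y, had 10178 and 9032 bp untreated and 6728 and 4602 bp treated (log2 change -0.73 ± 0.21 SE, limma adjusted p = 0.158; 0.0266 with the block, under the same 13.7%).

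The 51 other protein-coding genes of the same interval, largely olfactory and vomeronasal receptor genes, had few peaks. In 40 of them no library had a peak within 2 kb, 9 were fitted, and 0 passed the test. The pair with the largest changes was Vmn1r210, a vomeronasal receptor gene, with 354 and 829 bp untreated and 0 bp in both treated clones, and Trim38, with 661 and 0 bp untreated and 1243 and 507 bp treated.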

How the data were processed

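Chromatin immunoprecipitation sequencing of H3K27ac gave 2 untreated and 2 treated libraries; 4 input libraries were not analysed here. The submitters' processing notes name Bowtie2, bedtools and MACS2 and the mm10 build. Their versions, their settings and whether the inputs served as background are not known from these sources. A deposited list holds the peaks of 1 library with a score that the authors gave each peak on no stated scale; it was used only as a rank within its list. No counts are given, so depth and its precision are unknown.

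From the deposited peaks, union regions (overlap of 1 bp or more) and covered lengths were computed with Python 3.11.15 (numpy 2.4.6, pandas 2.3.3, scipy 1.17.1) on a RefSeq table of GRCm38.p6. Limma 3.58.1 in R 4.3.3 (trend in the prior variance, 2.43 borrowed degrees of freedom beside 2 residual) compared covered lengths. On simulated data with 13531 genes it called 49 or 50 of 50 genes at each log2 change of -2, -1, 1 and 2. Of 13331 unchanged ones it called 2. The simulated spread was the same for every gene, and changes as small as those of the histone genes were not simulated. Treatments are paired by clone, per the labels; deviations of same-letter libraries from their group means correlated at 0.481 over genes. Alternatives covered pseudocounts, filters, windows, score cuts, list lengths, scaling, region merging, the clone block and leaving out each library.

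Named are all H1 genes, the 2 longest and 2 shortest of each core class by mean covered length, the 3 largest increases and decreases, genes nearest to gained or lost regions and, of the other lists, genes past the threshold and the 2 with the largest change. H4c12, H2ac22, Npat, Nfyc and genes within named regions were added after their values were seen. The histone genes and all lists were chosen with earlier results of these data known.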

Additional observations from a re-analysis of the deposited data

How the results depend on the processing

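The absence of calls among the histone genes held under every alternative but 2: without the filter on covered length 2 rose, H2ac24 and H4bc24, from 1 shared peak (0.521% of all genes rose there), and with clone as a replicate block 1 changed, H2bc22, which fell (log2 change -0.55). With a library left out, which leaves 1 library in that group assumed to vary like the others, limma called 0 of the histone genes and 0 of all genes, with 1 to 2 histone genes at an unadjusted p under 0.05. The block changed the call of no other histone gene. The median log2 change over the histone genes was -0.034 with a pseudocount of 100 bp, -0.024 with 2000 bp, -0.0055 without the filter, 0.00062 with a window of 1 kb, -0.0596 with 5 kb, -0.18 with 50 kb, 0.0016 in the upper 50% by score, -0.016 after scaling to total covered length and -0.051 to -0.023 with a library left out. Gained regions numbered 1 when merged within 1000 bp, 1 within 5 kb of a gene, 0 among the top 20000 peaks and 3 to 4 with a library left out; lost regions numbered 2 when merged, 2 within 5 kb, 12 within 50 kb, 3 in the upper 50% by score, 3 among the top 20000 and 5 to 17 with a library left out. Merging left 24 regions in all 4 libraries. The log2 ratio of cover within 20 kb, whose alternatives were chosen after seeing the data, was -0.093 within 2 kb, -0.11 within 5 kb, -0.26 within 50 kb and -0.22 to -0.15 with a library left out. Where these values moved, the cause was not tested. Depth is unknown and limits every absence of a peak.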
